A study of Homo sapiens with 12 samples.

Results

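The genes described here encode the sensors of the IRE1 and ATF6 arms of the unfolded protein response and the proteins that act directly on them. They are 9 of the 28278 gene symbols in the count table and were chosen by name: ERN1, XBP1, TRAF2, ATF6, ATF6B, MBTPS1, MBTPS2, WFS1 and TMBIM6. All 9 passed the filter on low counts. Alpha cells, which make glucagon in the pancreatic islet, had been derived from the human embryonic stem cell line HUES-8, so a single genetic background underlies every sample. They were kept for 48 h in 30 mL bioreactors turning at 40 rpm, with the solvent DMSO in 6 samples and with 5 uM tunicamycin in 6. Samples 1 to 3 of each group were sequenced in batch 1 and samples 4 to 6 in batch 2. The labels call the samples biological replicates without saying whether they came from separate differentiations, so a p-value speaks only of the spread among these 12 samples.

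Tunicamycin blocks the first step of N-glycan assembly, and glycoproteins that fail to fold then accumulate in the endoplasmic reticulum (ER). IRE1, the product of ERN1, is an ER membrane kinase and ribonuclease that oligomerises under such stress and cuts a short stretch out of the XBP1 messenger RNA, which shifts the reading frame towards an active transcription factor. ATF6 is held in the ER membrane until stress lets it travel to the Golgi, where the site-1 protease (MBTPS1) and the site-2 protease (MBTPS2) release its transcription factor domain. Both factors act on genes of ER folding, translocation and degradation, and these arms keep highly secretory cells such as islet cells supplied with folding capacity.

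Libraries held between 17523442 and 28872269 counts. Expression is given in CPM, which are counts scaled to the library size with TMM factors, as mean ± SD of 6 samples. Fold changes compare tunicamycin with DMSO on the log2 scale, ± SE. In bulk RNA a change in the number of cells of one type cannot be told apart from a change in RNA per cell. The defining alpha cell transcript GCG, which encodes glucagon, was present in both groups, at 74634 ± 14010 CPM (DMSO) and 56820 ± 7797 CPM (tunicamycin). Summed mesenchymal markers (8 genes, none at 0 in all samples) ran from 159 to 1454 CPM with DMSO and from 84.0 to 613 CPM with tunicamycin. Of the 8, 0 passed the test, while 7 fell when the sample number was used as a block, beside 8.4% of all tested genes. Summed heart muscle markers (7 genes) ran from 5.11 to 1615 CPM and from 7.65 to 910 CPM. None of them passed, and with the block ACTC1 fell and NPPB rose, beside 8.4% and 8.92% of all tested genes. Markers of other lineages did fall without the block, namely 4 of 5 duct and acinar, 2 of 3 liver and 3 of 5 beta cell markers. This stands beside 3.29% of all tested genes. Of the 8 alpha cell markers 1 fell, and 0 of 2 delta cell and 0 of 2 proliferation markers passed. None of these markers rose without the block.

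The most direct RNA-level event of the IRE1 arm is the removal of 26 bases from XBP1, and the sequence is shown because gene-level counts cannot see it. The stretch lies in exon 4 of 5 of the transcript XBP1-201 (bases 567 to 592), within coding sequence, at chromosome 22, 28796127 to 28796152, minus strand, GRCh38. It was found by searching for a pair of loops of the form CNGCAGN at the spacing that leaves 26 bases between the cuts. The unspliced form is given with 20 bases on either side and the removed stretch in capitals, and the joined form with the flanks alone.

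XBP1 unspliced: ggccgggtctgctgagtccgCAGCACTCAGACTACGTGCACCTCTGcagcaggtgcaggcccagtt
XBP1 joined: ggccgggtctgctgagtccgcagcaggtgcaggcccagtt

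Of the 7 XBP1 transcripts in GENCODE release 29, 4 hold the 26 bases and 2 hold the joined flanks. Reads from both forms were added into a single count per sample. The values for XBP1 below are therefore the total of both forms, and the share that IRE1 had cut was not measured.

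All 9 genes had a positive fold change, and 3 passed the test over all genes. ERN1, XBP1 and WFS1 rose and 0 of the 9 fell, where 4.56% of all 17137 tested genes rose, 3.29% fell and 7.84% did either (edgeR quasi-likelihood test, Benjamini-Hochberg adjusted p under 0.05). When the sample number was used as a block, so that each tunicamycin sample was compared with the DMSO sample of the same number, 6 of the 9 rose, against 8.92% of all genes, and 0 fell, against 8.4%, so that 17.3% of all genes passed. The additional calls were ATF6, MBTPS1 and MBTPS2. TRAF2, ATF6B and TMBIM6 passed in neither fit. The median fold change of the 9 genes was 0.38 on the log2 scale, and that of all tested genes was -0.01.

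**Figure D1:**
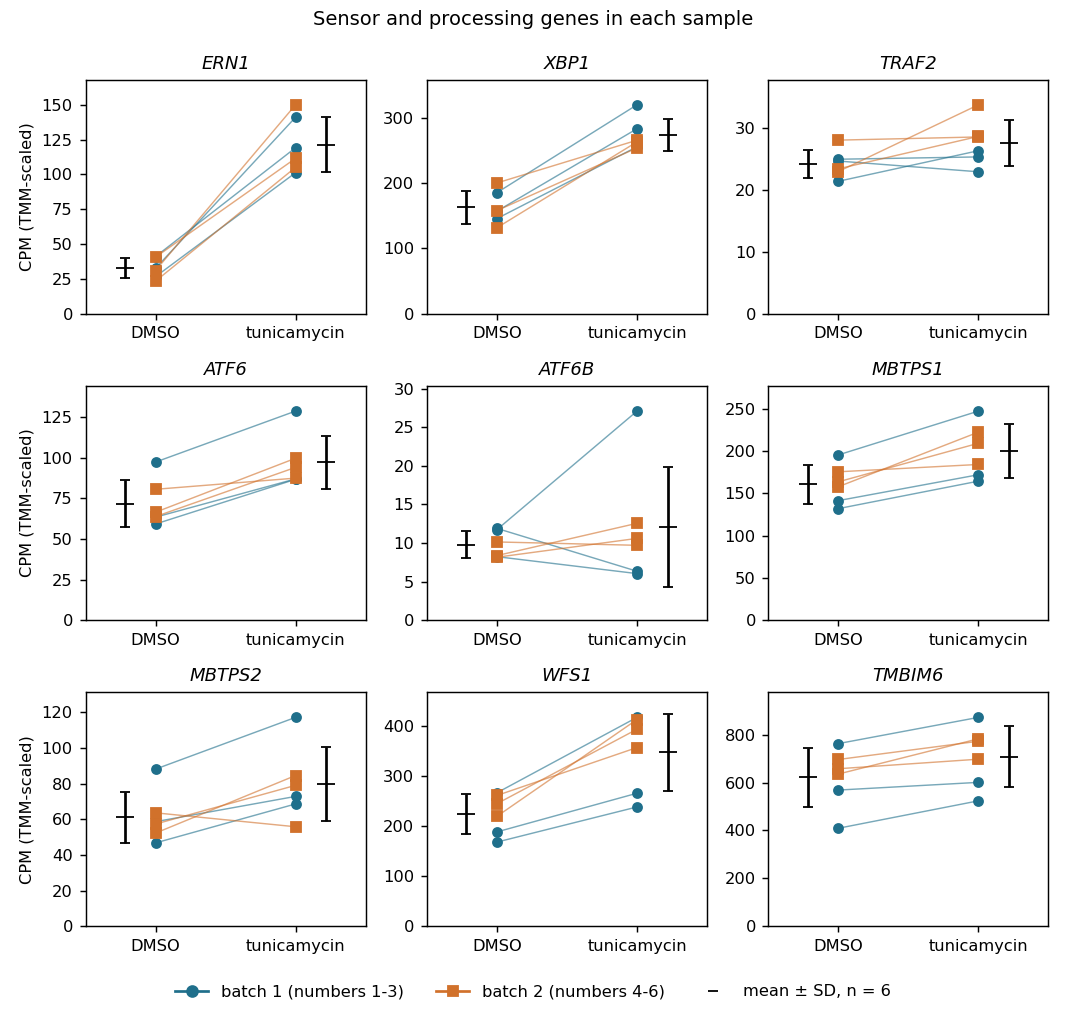
CPM of each gene in the 6 DMSO and 6 tunicamycin samples, with lines joining samples of the same number, circles for batch 1, squares for batch 2 and bars for mean ± SD (n = 6). The groups are apart for ERN1 and XBP1 and overlap for the other 7 genes, and 1 tunicamycin sample of ATF6B stands at 27.1 CPM.

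ERN1, which encodes the sensor IRE1, showed the largest change of the 9. It lies on chromosome 17 (64039142 to 64130819, minus strand). With DMSO its level ran from 23.4 to 41.0 CPM with a median of 31.8, and with tunicamycin from 101 to 150 CPM with a median of 115. The groups did not overlap, as for 2.47% of all tested genes in this direction and 1.3% in the other, and the lowest tunicamycin sample stood at more than 2 times the highest DMSO sample. The mean went from 32.6 ± 7.2 to 121 ± 20 CPM, a 3.73-fold increase (log2 fold change 1.90 ± 0.16, adjusted p = 4.9e-06). It was higher in 6 of 6 same-number pairs, by 1.46 (number 6) to 2.27 (number 4) on the log2 scale. The change was 1.85 in batch 1 and 1.95 in batch 2, and ERN1 passed in all 26 alternative fits. It was 1.75 when the mean log2 CPM of the mesenchymal markers was added beside batch and 2.16 with the block and that mean together.

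XBP1, the RNA that IRE1 cuts, rose less than the sensor. The gene lies on chromosome 22 (28794555 to 28800597, minus strand). Its level ran from 132 to 200 CPM with DMSO (median 157) and from 254 to 320 CPM with tunicamycin (median 264), and the groups did not overlap. The mean went from 163 ± 25 to 273 ± 25 CPM, or 1.68-fold (0.74 ± 0.11, adjusted p = 0.00095). In pairs the change ran from 0.41 for number 5, which had the highest DMSO value, to 1.00 for number 4, which had the lowest. The tunicamycin samples were closer together than the DMSO samples, with an SD of 0.13 against 0.22 on the log2 scale. The call was lost within batch 1 alone (0.82, adjusted p = 0.15) and in a fit with both the block and the mesenchymal mean as terms (0.54, adjusted p = 0.12). With that mean beside batch it held (0.67, adjusted p = 0.0092).

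TRAF2, the adaptor that links active IRE1 to kinase signalling, did not pass. Its level ran from 21.4 to 28.1 CPM with DMSO (median 24.1) and from 23.0 to 33.8 CPM with tunicamycin (median 27.5), so the groups overlapped. The log2 fold change was 0.18 ± 0.10 (adjusted p = 0.31), with a 95% interval of -0.03 to 0.39, and 5 of 6 pairs were higher. It was 0.22 with the mesenchymal mean added, both beside batch and beside the block. With DMSO it varied least of the 9 genes, with an SD of 0.13 on the log2 scale.

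Whether the genes of this arm changed by unequal amounts was tested on the ratio of counts within each library, a measure that does not depend on library scaling. Group labels were permuted within batch, giving 400 relabellings and a smallest possible two-sided p of 0.005, and 6 ratios were tested with Benjamini-Hochberg adjustment. The log2 ratio of ERN1 to XBP1 was -2.34 ± 0.47 with DMSO and -1.18 ± 0.23 with tunicamycin, a difference of 1.16 (exact permutation p = 0.005, adjusted p = 0.01, higher in 6 of 6 pairs). The ratio of ERN1 to TRAF2 differed by 1.73, with the same p, and was also higher in 6 of 6 pairs. In both ratios the 2 groups did not overlap.

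ATF6, the sensor of the other arm (chromosome 1, 161766294 to 161964070, plus strand), did not pass without the block and passed with it. Its level ran from 59.2 to 97.4 CPM with DMSO (median 65.1) and from 86.8 to 129 CPM with tunicamycin (median 90.8). The groups overlapped because DMSO 2, at 97.4 CPM, stood above 4 of the tunicamycin samples, and tunicamycin 2 was the highest of its own group. The mean went from 71.8 ± 14.5 to 97.3 ± 16.3 CPM (log2 fold change 0.44 ± 0.14, edgeR adjusted p = 0.074). All 6 pairs were higher, by 0.12 (number 6) to 0.58 (number 4), as in 10.7% of all tested genes (10.4% were lower in all 6), and with the block the change was 0.45 ± 0.08 (adjusted p = 0.0028). ATF6 also passed with DESeq2 (adjusted p = 0.033), without any scaling factor (0.045) and without DMSO 2 (0.55, adjusted p = 0.020). When the mean log2 CPM of the mesenchymal markers was added beside batch, the change was 0.21 (adjusted p = 0.38). With the block and that mean together it was 0.50 (adjusted p = 0.16).

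The difference between both sensors was itself larger than the spread. The log2 ratio of ERN1 to ATF6 went from -1.15 ± 0.34 to 0.32 ± 0.18, a difference of 1.47 (exact permutation p = 0.005, adjusted p = 0.01). Every DMSO library had fewer ERN1 than ATF6 counts, from -1.58 to -0.63 on the log2 scale. Every tunicamycin library had more, from 0.13 to 0.59, and each of the 6 pairs was higher. These counts are not divided by gene length, so they do not rank the levels of both genes. Per kb of exon sequence, ERN1 with tunicamycin was at 11.2 ± 1.8 CPM and overlapped ATF6, at 12.3 ± 2.1 CPM.

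ATF6B, the relative of ATF6 that is also cleaved under stress (chromosome 6, 32115264 to 32128253, minus strand), had the lowest level of the 9 and, with tunicamycin, the widest spread. With DMSO it ran from 8.15 to 11.9 CPM (median 9.24). With tunicamycin it was at 6.03 to 12.5 CPM in 5 samples and at 27.1 CPM in tunicamycin 1, or 663 counts. The log2 fold change of 0.31 ± 0.31 (adjusted p = 0.62) became -0.17 without that sample, and 3 of 6 pairs were higher. It was 0.49 with the mesenchymal mean beside batch and 0.19 with the block and that mean together, and passed in neither fit. The ratio of ATF6 to ATF6B differed by 0.32 (exact permutation p = 0.46, adjusted p = 0.535), with 4 of 6 pairs higher. In the annotation 289 of its exon bases (7.96%) are shared with the transcript AL662884.2 and 71 (1.96%) with TNXB, both on the same strand. The effect of this on the counts of ATF6B was not tested, so they are uncertain.

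The site-1 and site-2 protease genes passed with the block only. MBTPS1 (chromosome 16, 84053761 to 84116906, minus strand) ran from 132 to 195 CPM with DMSO (median 161) and from 164 to 247 CPM with tunicamycin (median 197). Its log2 fold change was 0.31 ± 0.12 (adjusted p = 0.16), and with the block 0.31 ± 0.08 (adjusted p = 0.015). MBTPS1 was higher in 6 of 6 pairs, by 0.07 to 0.49. MBTPS2 (chromosome X, 21839636 to 21885424, plus strand) ran from 46.7 to 88.1 CPM (median 58.0) and from 55.8 to 117 CPM (median 75.9). Its change was 0.38 ± 0.17 (adjusted p = 0.22), or 0.38 ± 0.10 with the block (adjusted p = 0.029), and it was higher in 5 pairs and lower by 0.19 in number 6. Adding the mesenchymal mean beside batch gave changes of 0.14 and 0.13, and with the block and that mean together they were 0.36 and 0.42, where neither passed (adjusted p = 0.27 and 0.35). YY2, a gene inside MBTPS2 on the same strand, shares 1093 (12.2%) of the exon bases of MBTPS2. The effect on its counts was likewise not tested, so they are uncertain. The ratio of MBTPS1 to MBTPS2 did not differ beyond its spread, at 1.41 ± 0.20 with DMSO and 1.35 ± 0.22 with tunicamycin (difference -0.06, exact permutation p = 0.535 before and after adjustment; 0.0088 without DMSO 1).

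WFS1 encodes wolframin, an ER membrane protein that is lost in Wolfram syndrome and that restrains ATF6 signalling. The gene lies on chromosome 4 (6269849 to 6303265, plus strand). It ran from 168 to 267 CPM with DMSO (median 232) and from 238 to 417 CPM with tunicamycin (median 375), with an overlap formed by tunicamycin 1 and 3, at 238 and 266 CPM. The mean went from 225 ± 40 to 347 ± 77 CPM, or 1.54-fold (0.62 ± 0.15, adjusted p = 0.020), and all 6 pairs were higher, by 0.45 to 0.91. With the block the change was 0.61 ± 0.08 (adjusted p = 0.00045). Without the block the call was lost when DMSO 5 (0.59, adjusted p = 0.0515), tunicamycin 4 (0.61, adjusted p = 0.0529) or tunicamycin 5 (0.60, adjusted p = 0.0512) was left out, within batch 1 (0.57, adjusted p = 0.63) and when the mesenchymal mean was added beside batch (0.41, adjusted p = 0.12). With the block and that mean together WFS1 passed (0.85, adjusted p = 0.016).

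TMBIM6, which encodes BAX inhibitor 1, an ER membrane protein that binds IRE1 and dampens its activity, had the highest level of the 9 and did not pass. The gene lies on chromosome 12 (49707725 to 49764934, plus strand). It ran from 409 to 763 CPM with DMSO (median 647) and from 524 to 872 CPM with tunicamycin (median 735), so the groups overlapped widely. The change was 0.19 ± 0.15 (adjusted p = 0.52; 0.11 with the block), although 6 of 6 pairs were higher, by 0.08 to 0.36. It was -0.00032 once the mesenchymal mean was added beside batch, and 0.17 with the block and that mean together. The ratio of WFS1 to TMBIM6 went from -1.46 ± 0.23 to -1.04 ± 0.15, a difference of 0.42 (exact permutation p = 0.01, adjusted p = 0.015) with 6 of 6 pairs higher. The change of WFS1 thus exceeded that of TMBIM6 in the same libraries, although the groups overlapped in this ratio.

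**Figure D2:**
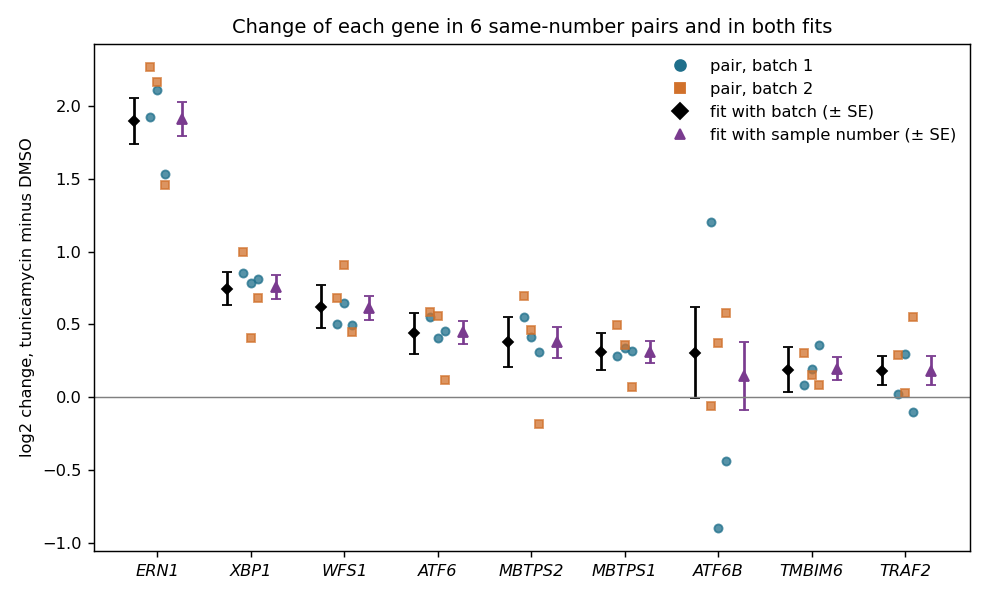
Log2 change of each gene, tunicamycin minus DMSO, in the 6 same-number pairs (circles for batch 1, squares for batch 2), with the fitted change ± SE using batch (diamonds) or sample number (triangles) as a term. ERN1 lies between 1.46 and 2.27 in every pair, ATF6B spreads from -0.90 to 1.20, and the error bars of ATF6, MBTPS1 and MBTPS2 are shorter in the fit with sample number.

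Samples numbered 2 stood high in both groups. DMSO 2 was the highest DMSO sample for 6 of the 9 genes, and tunicamycin 2 was the highest tunicamycin sample for 6. Of these, 5 were shared: ATF6, MBTPS1, MBTPS2, TMBIM6 and WFS1. DMSO 2 and tunicamycin 2 were also the libraries with the lowest mesenchymal marker sum in their groups, at 159 and 84.0 CPM. The fits with the mesenchymal mean are given with each gene. The same libraries had the highest alpha cell marker sum of their groups, at 117990 and 94556 CPM. Their heart muscle, beta cell, delta cell and proliferation sums were the lowest. Their duct and acinar and liver sums were not the lowest in both groups. Which of these differences goes with the high values was not tested. None of the 9 passed the test for a difference between sequencing batches (smallest edgeR adjusted p = 0.27), where 3.62% of all genes passed. A response that differed between batches was called for 0 of 17137 genes, or 0% (edgeR interaction test, 169 with an unadjusted p under 0.05, and 0 calls also with DESeq2 and limma-voom). Among the 9 genes the smallest unadjusted interaction p was 0.30, for TRAF2. Within batch 1 and batch 2 respectively, the change was 0.81 and 0.68 for XBP1, 0.46 and 0.42 for ATF6, and 0.56 and 0.68 for WFS1.

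Levels are compared between genes after division by length, as CPM per kb of exon sequence in GENCODE release 29. With DMSO the order was TMBIM6 (101 ± 20 CPM per kb), XBP1 (53.8 ± 8.4), WFS1 (49.8 ± 8.9), MBTPS1 (15.7 ± 2.2), ATF6 (9.10 ± 1.84), MBTPS2 (6.84 ± 1.61), TRAF2 (6.63 ± 0.62), ERN1 (3.00 ± 0.66) and ATF6B (2.69 ± 0.48). The neighbours XBP1 and WFS1, ATF6 and MBTPS2, MBTPS2 and TRAF2, and ERN1 and ATF6B overlapped between samples. With tunicamycin ERN1 stood at 11.2 ± 1.8 CPM per kb, 6th in place of 8th and overlapping ATF6 (12.3 ± 2.1). TMBIM6 (114 ± 21) and XBP1 (90.2 ± 8.2), which were apart with DMSO, then overlapped. Exon length in the annotation need not be the length of the transcripts these cells use.

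The promoters of the 3 genes that rose are shown because they differ in exact matches to a known ER stress response element (ERSE). This element is a CCAAT box followed by 9 bases of any kind and a CCACG box. The factor NF-Y binds the first box, and ATF6 or XBP1 the second. Each window runs from 250 bases before to 50 bases after the RefSeq start site (GRCh38.p14), 5′ to 3′ on the gene's strand, with each CCAAT and CCACG of either strand in capitals. The windows are at chromosome 17, 64130095 to 64130394 (ERN1), chromosome 22, 28800520 to 28800819 (XBP1) and chromosome 4, 6269600 to 6269899 (WFS1).

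ERN1: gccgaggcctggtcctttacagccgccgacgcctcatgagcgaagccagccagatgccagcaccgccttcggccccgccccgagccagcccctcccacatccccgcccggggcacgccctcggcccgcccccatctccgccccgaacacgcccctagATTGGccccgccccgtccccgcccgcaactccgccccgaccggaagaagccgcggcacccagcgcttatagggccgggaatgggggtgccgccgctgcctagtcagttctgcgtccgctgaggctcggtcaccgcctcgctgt
XBP1: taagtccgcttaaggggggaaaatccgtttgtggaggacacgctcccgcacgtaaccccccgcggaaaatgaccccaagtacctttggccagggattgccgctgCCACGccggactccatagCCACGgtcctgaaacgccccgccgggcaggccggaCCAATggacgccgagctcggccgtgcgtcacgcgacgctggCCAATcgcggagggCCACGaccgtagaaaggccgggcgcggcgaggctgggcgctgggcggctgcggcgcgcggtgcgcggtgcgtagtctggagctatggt
WFS1: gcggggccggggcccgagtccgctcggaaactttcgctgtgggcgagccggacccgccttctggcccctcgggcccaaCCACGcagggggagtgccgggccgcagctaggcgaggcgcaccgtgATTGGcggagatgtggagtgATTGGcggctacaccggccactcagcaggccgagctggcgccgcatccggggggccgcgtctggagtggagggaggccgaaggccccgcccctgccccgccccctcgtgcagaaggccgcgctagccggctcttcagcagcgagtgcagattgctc

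All 9 genes had a window, and XBP1 alone of them held an exact match to the full ERSE, starting 52 bases before the start site. Only 27 of 35116 windows (0.0769%) held this motif. ERN1 held 1 CCAAT box, on the opposite strand, and no CCACG. WFS1 held 2 CCAAT boxes on the opposite strand and 1 CCACG. None of the 9 windows held the related element ERSE-II (ATTGG, 1 base of any kind and CCACG, in 0.0541% of windows) or the sequence TGACGTGG (0.729%). The single boxes are common, with CCAAT in 34.6% and CCACG in 38.1% of windows. All were searched on both strands, and the single boxes can lie within the longer motifs. A match shows only that these letters are present. Near matches were not sought, so a window without an exact match may still hold a similar element.

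The 27 windows with an ERSE belong to 25 genes, of which 18 were tested. Of these, 13 rose and 1, SYNPO, fell (-0.78, adjusted p = 0.047), beside 4.56% and 3.29% of all tested genes. Their median log2 fold change was 0.91. Among them XBP1 (0.74) was the 12th largest, below HSPA5 (2.63), HSP90B1 (2.63), CRELD2 (2.26) and FICD (2.18). The element was first described in promoters of ER chaperones such as HSPA5, so the direction of these genes is no independent evidence. These genes are named for their motif, and SYNPO after its values were seen.

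**Figure D3:**
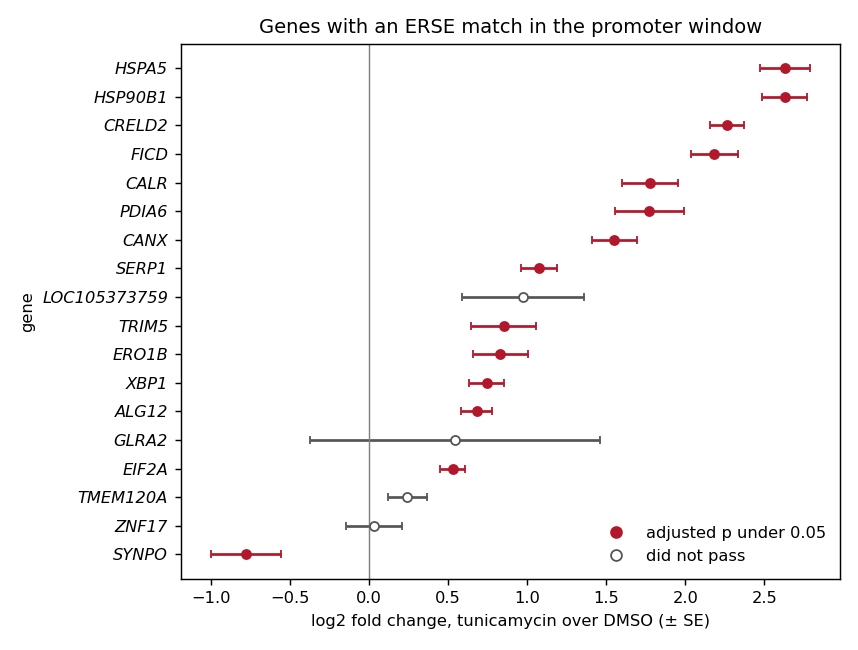
Log2 fold change ± SE, tunicamycin over DMSO, of the 18 tested genes whose promoter window holds an ERSE, filled where the adjusted p was under 0.05. XBP1 lies at 0.74, below the chaperone genes HSPA5 and HSP90B1 at 2.63, and SYNPO is the only gene below 0.

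The genes on which XBP1 and ATF6 act were nearly all called, beside 3 of the 9 sensor and processing genes. With the block 6 of these 9 rose, beside 8.92% of all tested genes, and 11 ATF6-leaning and 15 XBP1-leaning targets rose. Of 11 tested ATF6-leaning targets, mostly ER chaperones and degradation factors, 11 rose and 0 fell, with a median of 2.28, beside 4.56% and 3.29% of all tested genes and a median of -0.01. The largest changes were those of the chaperones HSPA5 (2.63 ± 0.16) and HSP90B1 (2.63 ± 0.14) and of the disulfide isomerase PDIA4 (2.59 ± 0.14). Of 16 XBP1-leaning targets, genes of folding, translocation and degradation, 15 rose and 0 fell, with a median of 1.04. The co-chaperones DNAJB9 (2.31 ± 0.18), DNAJB11 (2.24 ± 0.10) and DNAJC3 (1.92 ± 0.13) led them. SEC31A, a coat protein of transport vesicles, did not pass (0.33, adjusted p = 0.13), and within batch 1 alone 6 of the 16 rose, where 57 of 16940 genes passed. Both factors act on many of these genes, so the lists do not separate the arms, and genes with this response were among those known when the lists were drawn up.

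Fewer calls were made among other genes around IRE1. Of 21 IRE1 partners and components of the ligase that rejoins XBP1, 4 rose and 0 fell, with a median of 0.04, beside 4.56% and 3.29% of all tested genes. With the block 5 rose and 1 fell, beside 8.92% and 8.4%, which added MAPK8 and BAX. FICD, which modifies the chaperone BiP, rose from 9.60 ± 1.67 to 43.7 ± 6.8 CPM (2.18 ± 0.15, adjusted p = 8.9e-07). SEC63, a translocation channel component, rose by 1.10 ± 0.08 and DDRGK1, which is part of an ER-bound ligase of the ubiquitin-like protein UFM1, by 0.55 ± 0.12. The fourth was UFL1, the ligase that DDRGK1 anchors (0.37 ± 0.08). The count was 2 when the mesenchymal mean was added beside batch, where 872 of 17137 genes passed. It was also 2 with the block and that mean together (416 of 17137) and within batch 1 (57 of 16940). RTCB, the RNA ligase that rejoins the cut XBP1, stood at 73.6 ± 12.1 and 69.3 ± 6.5 CPM (-0.08 ± 0.11, adjusted p = 0.71). ERN2, the second IRE1 gene, was at 2.08 ± 0.99 and 1.42 ± 0.71 CPM (-0.52, adjusted p = 0.53). RTCB, ERN2, UFL1, MAPK8, BAX, SEC31A and FAIM2 were named after their values were seen.

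A further list held substrates of the same proteases, regulators of such substrates and cofactors of ATF6. Of its 18 tested genes 5 rose and 0 fell, with a median of 0.16, where 4.56% of all tested genes rose. CREB3L1 (1.34 ± 0.20) and CREB3L2 (0.98 ± 0.12), membrane-bound transcription factors released in the same way as ATF6, rose. PDIA5, a disulfide isomerase that acts on ATF6, rose from 18.1 ± 3.4 to 40.6 ± 5.4 CPM (1.17 ± 0.11, adjusted p = 1.6e-05). No gene of this list passed within batch 1 alone, where 57 of all genes passed. With the block and the mesenchymal mean together 3 did, where 416 of 17137 genes passed. Of the 6 genes of the TMBIM family and CISD2, 1 rose and 0 fell, with a median of 0.10, beside the same 4.56%. With the block FAIM2 was called too (adjusted p = 0.032), which makes 2, beside 8.92%. The gene called without the block was CISD2, the gene of a second form of Wolfram syndrome, which went from 49.2 ± 10.6 to 83.9 ± 14.6 CPM (0.77 ± 0.14, adjusted p = 0.0036). CISD2 was not called within batch 1 or with the block and the mesenchymal mean together.

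**Figure D4:**
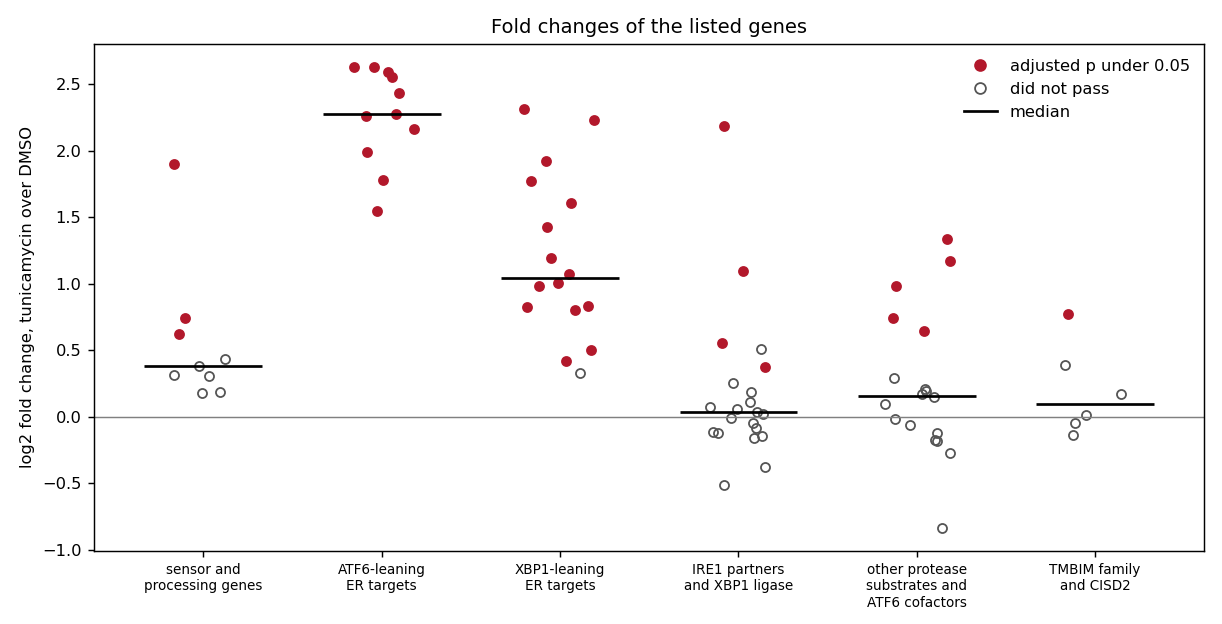
Log2 fold change, tunicamycin over DMSO, of the 9 sensor and processing genes and of the tested members of the 5 gene lists, filled where the adjusted p was under 0.05, with a line at each median. The medians are 0.38 for the 9 genes, 2.28 and 1.04 for the ATF6-leaning and XBP1-leaning targets, and 0.04, 0.16 and 0.10 for the other lists.

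For each gene that rose, the nearest other patterns over the 6 same-number pairs were sought among 11388 genes (mean log2 CPM at least 3), by the root mean square difference of the log2 changes. Nearest to ERN1 were SEL1L (0.18), DNAJC3 (0.25) and TRAM1 (0.27), which encode a degradation adaptor, an ER co-chaperone and a translocation factor. Their fitted changes were 1.99, 1.92 and 1.73. Nearest to XBP1 were TMED9 (0.10), a cargo receptor of the early secretory pathway, ELOVL4 (0.10), a fatty acid elongase, and SARS1 (0.11), the seryl-tRNA synthetase. Nearest to WFS1 were LCLAT1 (0.10), an acyltransferase of the ER, MCOLN1 (0.10), a lysosomal cation channel, and the noncoding LINC01128 (0.11). Of these, LCLAT1 did not pass the test itself (0.56, adjusted p = 0.074).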

How the data were processed

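RNA of 12 samples was sequenced after column isolation (Qiagen RNeasy Mini) and NEBNext Ultra II library preparation, per the labels' protocols. The authors deposited raw read counts per gene symbol, made with cutadapt 4.4, HISAT2 2.1.0 and featureCounts 2.0.6 on GRCh38, per the submitters' processing notes. Neither the strand setting nor the annotation is given in the sources used here.

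Counts were filtered with filterByExpr (17137 genes kept, 11141 removed), scaled with TMM and tested with edgeR 4.0.16 in R 4.3.3 (glmQLFit and glmQLFTest, batch as covariate, two-sided, Benjamini-Hochberg threshold 0.05). Standard errors are the log2 fold change divided by the root of the F statistic. Log2 ratios within a library used a pseudocount of 0.5, and log2 changes in pairs a prior count of 2. Alternatives included a block for sample number, DESeq2 1.42.0, limma-voom (limma 3.58.1), other scalings and filters, single batches and left-out samples. Same-number samples deviated together from their group and batch means (correlations 0.51, 0.58, 0.52, 0.12, 0.18 and 0.18 for numbers 1 to 6). The main fit did not use the number, and the fit with the number as a block is reported beside it. What a number marks is not stated in the labels. For numbers 4 and 5 a higher correlation with another number was found (0.20 and 0.27). Samples of 1 group differed beyond sampling noise (chi-square per gene 10.9 to 99.6). Positions and exon lengths are from GENCODE release 29, and promoters from RefSeq.

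Genes named are the 9 members, up to 3 called genes of each of the 5 lists (mean log2 CPM at least 1), and the 3 nearest patterns for each called member. Outside this rule GCG is named as the cell type check, and ACTC1, NPPB, CRELD2, SYNPO, RTCB, ERN2, UFL1, MAPK8, BAX, SEC31A and FAIM2 were chosen after their values were seen. The members, lists and tests were chosen with earlier results of these data known.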

Additional observations from a re-analysis of the deposited data

Results flagged for a closer look

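Among 30 sets of 6 values (9 genes and 6 ratios in 2 groups), 3 held a sample whose distance from its nearest neighbour took more of the group's range than Dixon's 95% limit, which chance passes in about 1 of 20 sets. They are given as values. ATF6B in tunicamycin 1 stood at 27.1 CPM, with the next sample at 12.5 CPM (0.691 of the range). ATF6 in tunicamycin 2 stood at 129 CPM, with the next at 99.8 CPM (0.692). The log2 ratio of WFS1 to TMBIM6 in tunicamycin 1 was -1.33, with the next at -1.06, and its distance of 0.627 only just passed the limit.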

How the results depend on the processing

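ERN1 passed in 26 of 26 alternative fits, XBP1 in 24, WFS1 in 21, ATF6 in 4, MBTPS1 and MBTPS2 in 1 each, and TRAF2, ATF6B and TMBIM6 in 0. The number of the 9 genes called was 6 with the block for sample number and 1 within batch 1, and 2 to 4 with 1 sample left out. Over all genes 1344 passed, against 2967 with the block, 2100 with DESeq2, 57 within batch 1, 654 within batch 2, 872 with the mesenchymal mean as a covariate and 416 with the block and that mean together, a fit chosen after seeing the data. Leaving out 1 sample gave 791 (without tunicamycin 4) to 1399 genes. The interaction of treatment and batch, refitted under alternatives chosen after seeing the data, gave 0 genes each time. Signs changed for ATF6B (-0.17 to 0.46 with 1 sample left out), TMBIM6 (-0.00032 with the mesenchymal mean) and the ratio of MBTPS1 to MBTPS2 (-0.12 to 0.0088 with 1 sample left out), none of which passed in the main test. The 4 ratios that passed also did so when labels were permuted without regard to batch, with a pseudocount of 5 and with any 1 sample left out. They passed over the 6 pairs too (exact test flipping the signs of the pairs, adjusted p = 0.047 each). All 6 pairs were higher in each, where this test gives its smallest possible p. The value therefore shows only that the pairs share 1 direction. The block changed the calls of ATF6, MBTPS1 and MBTPS2 and of no other member. The cause of these differences was not tested, except that single batches hold 6 samples.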
